A study of Drosophila melanogaster with 2 samples.

Results

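The 253 peaks described here are all the Fer2-GFP peaks on chromosome 4 of Drosophila melanogaster in the list that the authors called from both replicates together, which holds 30000 peaks. The rule for a member was its chromosome alone and used no rank, location or sequence, though the chromosome was picked with earlier results of these data known. The assay was chromatin immunoprecipitation followed by sequencing (ChIP-seq), which recovers the DNA held by one protein. The material was whole embryos aged 6 to 24 h from a transgenic line that stably carries Fer2 with GFP at its C terminus, and the precipitating antibody was against GFP. The series has 2 biological replicates of this 1 group, numbered 2 and 3 by the submitters. The sources used here do not give the promoter that drives the fusion, and as the embryos were whole, binding cannot be assigned to a cell type. There is no other genotype, treatment or age in the series, so nothing below is a test between conditions. Sequencing depth is unknown, because the files hold peaks and not reads.

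Chromosome 4 is the smallest autosome of the fly, often called the dot chromosome. It is packaged largely as heterochromatin, with HP1a and methylated histone H3 lysine 9 along most of its length, and it carries many remnants of transposable elements between and inside its genes. Its genes are nevertheless expressed, and the RNA-binding protein POF coats the chromosome. Among them are regulators of development such as ey and toy (the Pax6 genes of the eye), ci (the transcription factor of the Hedgehog pathway) and pan (that of the Wnt pathway). Fer2 is a basic helix-loop-helix factor, and factors of that class recognise the E-box, whose letters are CANNTG.

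Of the 253 peaks, 10 (3.95%, against 9.54% of all 30000) were among the 2862 peaks that the authors kept after testing reproducibility between replicates (the irreproducible discovery rate, IDR; below, the thresholded list). Of their summits, 6 lay upstream of a gene (zfh2, PlexA, lncRNA:CR43437, RpS3A, Asator and Arl4) and 3 lay inside one, just upstream of an internal start (gw, Sox102F and Mitf). The last was in the shared 3' ends of sv and Cals. The sequence within 50 bp of the summit is shown for the 8 of them with no annotated UTR in that window, since these are the sites on the chromosome with the highest signal. All are the plus strand of the RefSeq Release 6 assembly, which is dm6, and capitals mark each CANNTG.
zfh2, chr4:497848-497948: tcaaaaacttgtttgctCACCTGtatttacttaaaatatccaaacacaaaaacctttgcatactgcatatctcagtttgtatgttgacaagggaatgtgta
PlexA, chr4:1027257-1027357: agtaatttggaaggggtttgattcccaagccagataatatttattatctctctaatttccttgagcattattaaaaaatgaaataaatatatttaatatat
lncRNA:CR43437, chr4:424772-424872: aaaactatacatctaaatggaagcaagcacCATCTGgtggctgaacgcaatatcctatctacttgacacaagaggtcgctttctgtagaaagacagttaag
gw, chr4:660096-660196: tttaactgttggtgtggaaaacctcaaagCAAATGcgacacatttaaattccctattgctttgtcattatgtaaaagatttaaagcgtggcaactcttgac
Sox102F, chr4:807556-807656: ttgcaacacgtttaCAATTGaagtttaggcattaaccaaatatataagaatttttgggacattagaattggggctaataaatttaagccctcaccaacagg
Asator, chr4:489459-489559: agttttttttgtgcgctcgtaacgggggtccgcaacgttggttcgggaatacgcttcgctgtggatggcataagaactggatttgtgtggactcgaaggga
Arl4, chr4:179519-179619: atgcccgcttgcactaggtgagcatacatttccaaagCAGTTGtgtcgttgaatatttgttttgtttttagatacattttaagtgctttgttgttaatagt
Mitf, chr4:1218798-1218898: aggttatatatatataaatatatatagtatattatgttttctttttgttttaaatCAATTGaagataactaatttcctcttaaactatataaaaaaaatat

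The 3 highest peaks of the chromosome had nearly equal signal values and were narrower, at 235 to 243 bp, than the 370 bp of the other 250 members. The signal value is the authors' own score for a peak, and it is used here to rank peaks within a list. The highest (signal value 259.8, rank 378 of 30000, chr4:497776-498015) was intergenic, 3912 bp upstream of the nearest start of zfh2 (FBgn0004607), which encodes a zinc finger homeodomain factor. It ranked 383 in replicate 2 and 403 in replicate 3, and the replicate summits lay 29 and 24 bp from the pooled summit. The next (259.7, rank 379, chr4:1027189-1027423) was 206 bp upstream of PlexA (FBgn0025741), a semaphorin receptor of axon guidance. Its rank differed more between replicates, at 1252 in replicate 2 and 216 in replicate 3, where it was the highest peak of the chromosome. The third (250.9, rank 403, chr4:424701-424943) was 1245 bp upstream of lncRNA:CR43437, ranked 998 in replicate 2 and 233 in replicate 3, and had no start of a coding gene within 19 kb, the nearest being that of lgs at 19089 bp.

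A pair of peaks with signal values above 140 followed. The peak at gw (FBgn0051992, 146.9, rank 1067, chr4:659961-660330) lay 163 bp upstream of an internal transcription start site (TSS) of gw and 462 bp inside the gene, counted from its outermost start. The gene gw encodes GW182, an effector of silencing by microRNAs. Its ranks in the replicates were close, 1158 in replicate 2 and 923 in replicate 3. The peak at sv and Cals (142.4, rank 1121, chr4:1113102-1113471) was the exception in location. Its summit lay in the annotated 3' UTRs of both genes, 9678 bp downstream of the nearest Cals start. The gene sv encodes a Pax2 factor of sense organs and Cals encodes calsyntenin, a membrane protein of neurons. The peak ranked 583 in replicate 2, better than in replicate 3 (1268), and in replicate 2 a further peak over the same 3' ends ranked 2759. The summits lay 73 bp (replicate 2) and 170 bp (replicate 3) from the pooled summit.

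The other 5 thresholded peaks ranked between 1847 and 2695. RpS3A (FBgn0017545), a protein of the small ribosomal subunit, had a signal value of 103.2 (chr4:67071-67440) with its summit 49 bp upstream of the start, the closest of the 10. Sox102F (FBgn0039938), a SoxD factor, had 97.95 (chr4:807421-807790) at 259 bp upstream of an internal start, 26.8 kb inside the gene. Asator (FBgn0039908), a tau tubulin kinase, had 82.8 (chr4:489324-489693) at 515 bp upstream, so it counted as intergenic by 15 bp under the 500 bp limit used for promoters. Arl4 (FBgn0039889), a small GTPase, had 81.3 (chr4:179384-179753) at 180 bp upstream. Mitf (FBgn0263112), a helix-loop-helix leucine zipper factor of lysosome genes, had 79.2 (chr4:1218663-1219032) at 192 bp upstream of an internal start, 19996 bp inside the gene. These 5 were uneven between the replicates: RpS3A ranked 3376 in replicate 2 and 1230 in replicate 3, Asator 4341 and 2306, and Arl4 5535 and 2083. Sox102F was higher in replicate 2, with rank 1919 against 3032, and so was Mitf, with 1594 against 7462. With the 2862 highest peaks of a replicate taken as its own list, 7 of the 10 were overlapped by at least 1 bp in replicate 2, 8 in replicate 3 and 5 in both. The last were zfh2, PlexA, lncRNA:CR43437, gw and sv/Cals. These counts were not computed over all 2862 thresholded peaks, so they cannot be read as particular to chromosome 4.

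Just outside the thresholded list came ey, Mitf and CaMKII. The lowest thresholded peak on any arm had a signal value of 75.7, between Mitf at 79.2 and the first peak outside on this chromosome. That peak (71.6, rank 3062, chr4:697452-697821) was 52 bp upstream of ey (FBgn0005558), ranking 2580 in replicate 2 and 4478 in replicate 3. A further peak, at 62.3 and rank 3657, lay 710 bp from it in the space between ey and its divergent neighbour myo, a ligand of the TGF-beta family, 762 bp upstream of ey and 872 bp from the myo start. An intronic peak of Mitf (67.5, rank 3305) was overlapped by a replicate 2 peak of rank 1227 and by none in replicate 3, the best ranked member without both replicates. CaMKII, a calcium-dependent kinase of synapses, had 65.4 at rank 3437, 51 bp upstream of its start, with rank 7955 in replicate 2 and 2729 in replicate 3. An Asator intron held the fifth, 61.2 at rank 3782 and 2459 bp inside the gene, with rank 2588 in replicate 2 and 15801 in replicate 3. The sequences around the ey pair follow, as both hold the E-box CAGATG (capitals, dm6, plus strand).
ey, promoter, chr4:697587-697687: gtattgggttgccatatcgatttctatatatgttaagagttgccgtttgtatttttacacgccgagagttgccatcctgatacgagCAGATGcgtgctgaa
ey, upstream, chr4:696877-696977: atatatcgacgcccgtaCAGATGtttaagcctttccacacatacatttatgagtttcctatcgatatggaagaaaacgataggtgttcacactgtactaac
The upstream window also contains TATCGATA, the core of the DNA replication-related element of fly promoters. This word was found within 50 bp of the summit of 2 members (0.79%), against 0.90% of windows of that length along the chromosome. In windows at the chromosome's 142 coding-gene starts its share was 6.34%.

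**Figure D1:**
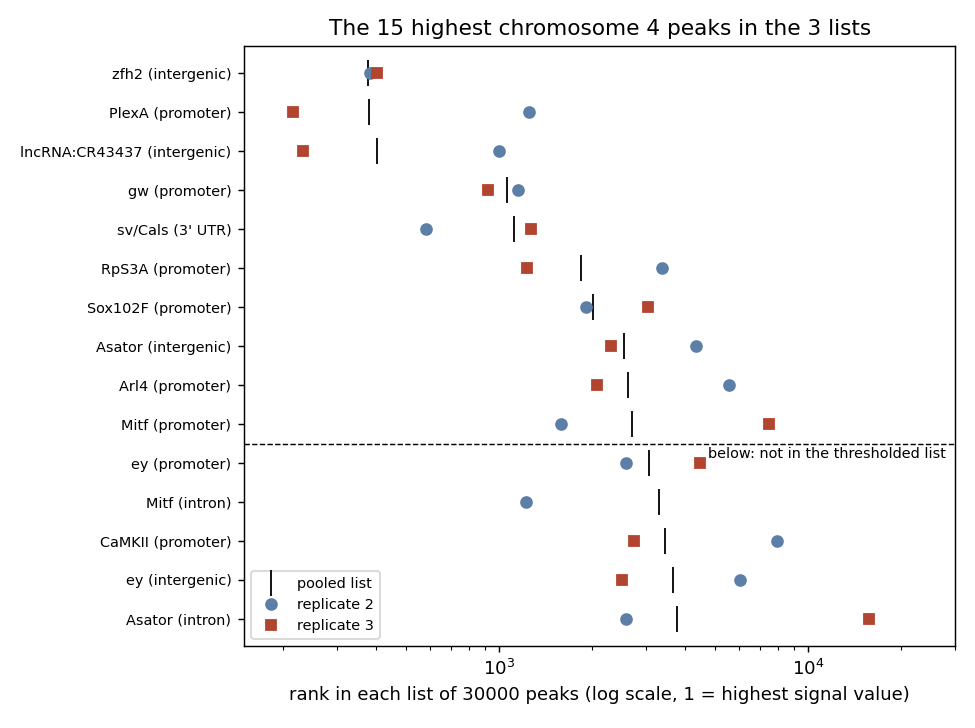
The 15 chromosome 4 peaks with the highest pooled signal value, in order, against their rank in the pooled list (tick), replicate 2 (circle) and replicate 3 (square) on a log axis. The ranks of the replicates nearly coincide at zfh2 (383 and 403) and lie far apart at the Mitf promoter (1594 and 7462), and the Mitf intron has no replicate 3 peak.

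The share of peaks kept by the authors was lower on chromosome 4 than on each other arm. The thresholded peaks were the 2862 with the highest pooled signal values, as the best ranked peak outside that list ranked 2863. The share therefore describes how the peaks ranked by pooled signal, and it is not a separate measure of agreement between the replicates. Of the 253 members, 10 were thresholded, or 3.95% (95% Wilson interval 2.16 to 7.12), against 9.54% of all pooled peaks and 8.59% (3L) to 10.5% (X) on the other 5 arms. The intervals of those arms, of which the lowest bound was 7.94% on 3L, did not reach that of chromosome 4. These intervals treat peaks as independent draws and cover counting error only, and no test was run, since there is 1 group. Per Mb of assembled sequence the chromosome held 187.7 pooled and 7.42 thresholded peaks, against 224.5 and 21.5 on the other arms together. Pooled peaks were thus 0.84 times as dense as elsewhere, and thresholded ones 0.345 times. The gap in pooled peaks was smaller per Mb of unmasked sequence, at 259.9 against 280.7 on the other arms. Per coding gene, pooled peaks were more numerous, at 3.16 against 2.15, as the chromosome has 59.3 coding genes per Mb against 104.6 elsewhere.

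**Figure D2:**
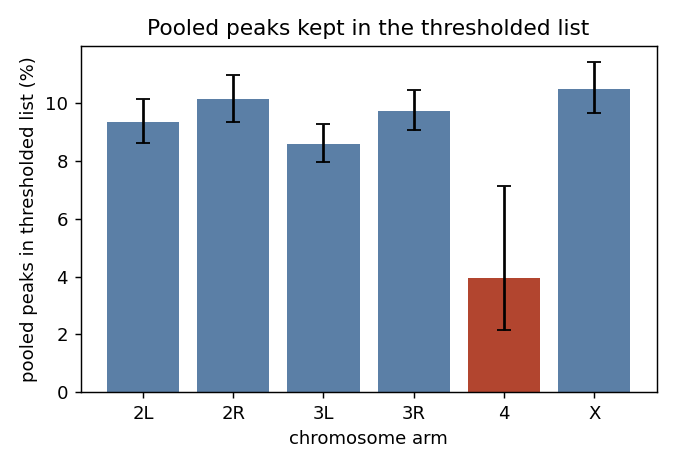
Share of the pooled peaks of each chromosome arm that are in the thresholded list, in percent, with 95% Wilson intervals over peaks. Chromosome 4 stands at 3.95% and the other 5 arms between 8.59% and 10.5%.

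The low thresholded share and the low top bin of the pooled ranks describe the same 10 peaks, as the thresholded list is a cut on pooled rank. Chromosome 4 made up 0.843% of the pooled list as a whole. In ranks 1 to 3000 it made up 0.333% (10 peaks), in ranks 3001 to 6000 0.667% (20 peaks), and in ranks 6001 to 9000 1.13% (34 peaks). The share was not steady beyond that, at 0.6% (18 peaks) in ranks 9001 to 12000 and 1.33% (40 peaks) in ranks 21001 to 24000. The top bin was also the lowest bin in each replicate's own list, at 0.433% in replicate 2 and 0.333% in replicate 3, against 288 and 291 peaks on the chromosome in the whole of these lists. The median rank of the members was 17660 (quartiles 8955 and 23343), against 14980 on the other arms, and 106 of the 253 were in the upper 15000. Their median signal value was 21.8 (quartiles 18.2 and 33.3), against 24.0 over all pooled peaks. The highest peak of every other arm ranked 6 or better.

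**Figure D3:**
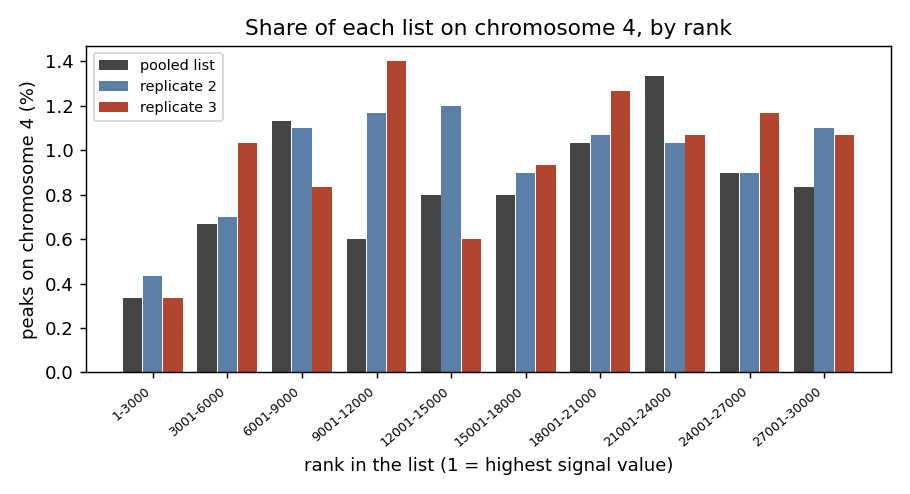
Share of the pooled list and of each replicate's list that lies on chromosome 4, in percent, in bins of 3000 ranks from the highest signal value (left) to the lowest (right). The leftmost bin holds 0.333% (pooled), 0.433% (replicate 2) and 0.333% (replicate 3), the lowest bar of each list.

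Repeats and base composition of the chromosome differed in the same samples and stand here as measured. Of chromosome 4, 27.8% was masked as repeat in the reference (20% of the other arms) and 35.3% was G or C (42.2%). Within 50 bp of the members' summits 27.2% of bases were masked, near the chromosome's own share, while 17.8% were at the summits of the other arms. GC content there was 35.1% ± 8.12 (SD over 253 peaks) against 40% ± 10.2 on the other arms. How far mapping of reads in repeats, base composition or chromatin bears on the low share of thresholded peaks was not tested.

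The share of pooled members overlapped in both replicates was near that of the whole list, while the replicates' own lists overlapped less on chromosome 4 than elsewhere. A peak of each replicate overlapped 113 members by at least 1 bp, or 44.7% (38.7 to 50.8), against 48.4% of all pooled peaks. Replicate 2 alone overlapped 49 (19.4%, against 18.7% of all pooled peaks) and replicate 3 alone 68 (26.9%, against 23.6%). Another 23 were overlapped by neither (9.09%, against 9.28%). Of the chromosome 4 peaks in the list of replicate 2, a replicate 3 peak overlapped 121 (42%), against 50.7% on the other arms. The reverse overlap was 111 (38.1%), against 46.8%. Neighbouring pooled members could share a replicate peak: the 162 members with a replicate 2 peak matched 138 different ones, and the 181 with a replicate 3 peak matched 160. Of the 30 members that ranked 6000 or better, 26 were in both, a share not computed over all pooled peaks of those ranks. Of the 4 others, the Mitf intron, the promoter that Pur-alpha (rank 4975) shares with Tdg and an intergenic peak at 5087 had a replicate 2 peak only, and an intergenic peak at 5365 a replicate 3 peak only. Promoter members were in both replicates in 57 of 83 cases (68.7%) and the other members in 56 of 170 (32.9%), while on the other arms these shares were 63.7% and 42.2%. Where both replicates had a peak, their summits lay a median of 125 bp apart (quartiles 63 and 213), against 80 bp (33 and 170) on the other arms. Over these 113 members Pearson's r between replicate 2 and replicate 3 signal values, on the log2 scale, was 0.64 and Spearman's rho 0.54, against 0.78 and 0.65 over 14395 peaks elsewhere. This is a description over peaks that share libraries and 1 control, not over replicates.

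Gene starts held about 1 in 3 of the members. A summit within 500 bp of any annotated TSS was counted as promoter, and this held for 83 (32.8%, 27.3 to 38.8), although only 10.7% of the chromosome's bases are that close to a TSS. On the other arms the figures were 28.9% of summits and 13.6% of bases. Introns held 76 members (30%, against 42.6% of the chromosome's bases), intergenic DNA 51 (20.2%, against 18.2%), coding sequence 23 (9.09%, against 18.8%), 3' UTRs 13, 5' UTRs 4 and non-coding exons 3. Coding sequence was therefore below its share of bases, as on the other arms (3.53% of summits and 13.7% of bases), though its share of summits was higher here. The best ranked coding member was in CG33978 (53.9, rank 4459), and it was overlapped in both replicates, at ranks 6161 and 5209.

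**Figure D4:**
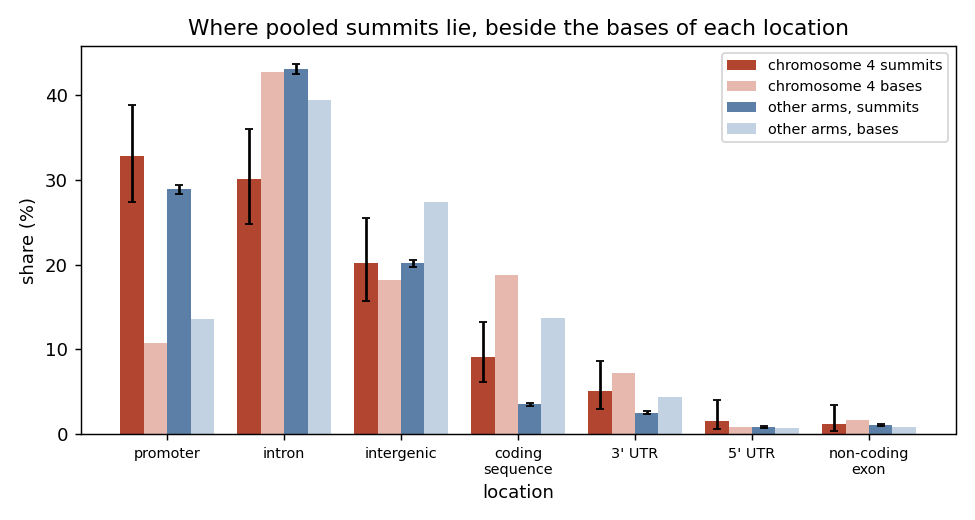
Share of pooled summits in each location on chromosome 4 (dark red) and the other 5 arms (dark blue), with 95% Wilson intervals, beside the share of bases of that location (pale bars), in percent. Promoters hold 32.8% of chromosome 4 summits and 10.7% of its bases, and coding sequence 9.09% and 18.8%.

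Members in promoters, introns and intergenic DNA each had a lower median rank than peaks of the same location elsewhere, and the thresholded share was lower in promoters and introns. The median rank of promoter members was 10695 against 9842 on the other arms, that of intron members 19532.5 against 15762, and that of intergenic members 19921 against 17551. Of the 83 promoter members, 6 were thresholded (7.23%, 3.36 to 14.9), against 19.4% of promoter peaks elsewhere. Of the 76 intron members, 0 were thresholded, which allows a share of up to 3.95% (3 counts of 76; the Wilson upper bound is 4.81%), against 6.77% elsewhere. Of the 51 intergenic members, 3 were (5.88%, 2.02 to 15.9), against 4.41%. The interval of the last share holds the value elsewhere.

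Near coding genes most summits sat just upstream of an annotated start. Of the 78 members within 500 bp of the TSS of a coding gene, 58 (74.4%, 63.7 to 82.7) lay upstream, at a median of 71 bp upstream over the 78. On the other arms 65.4% lay upstream, a share within that interval, with a median of 75 bp. All 6 thresholded promoter members were upstream, 49 to 259 bp away, 3 of them of an internal start. The Wilson interval of this share starts at 61.0%, and 85.0% of such thresholded peaks on the other arms lay upstream. Of the 58, 21 lay inside the same gene, upstream of an internal start. Another 5 members were within 500 bp only of the TSS of a gene that is not annotated as protein-coding. The remaining 170 members had their nearest TSS of any kind at a median distance of 2270 bp (quartiles 1248 and 5135), against 3034 bp on the other arms.

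**Figure D5:**
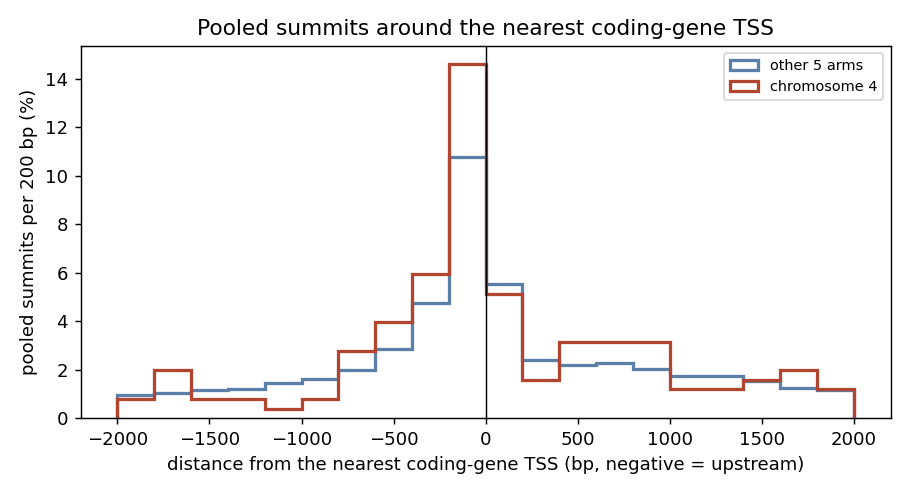
Pooled summits by distance from the nearest TSS of a coding gene, in bp with upstream negative, as a percentage of all summits of chromosome 4 (red, 253) or of the other 5 arms (blue, 29747) per 200 bp. Both outlines are highest in the 200 bp just upstream of the start.

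Most genes of the chromosome had some pooled peak, and few had a thresholded one. Of 80 coding genes, 70 (87.5%, 78.5 to 93.1) had a pooled summit in the gene or within 1 kb, against 67.9% of all coding genes. Only 10 (12.5%, 6.93 to 21.5) had a thresholded one, against 23.1% of all coding genes. Genes on chromosome 4 are long, with a median of 10090 bp against 2156 bp elsewhere, which gives each gene more room for a summit. Within 500 bp of any of a gene's own annotated starts, 58 of the 80 had a pooled summit (72.5%, 61.9 to 81.1), against 49.5% elsewhere, and 6 a thresholded one (7.5%, 3.48 to 15.4), against 16%. Genes here have more annotated starts, a mean of 1.78 against 1.40, and the part of length and of the number of starts in these shares was not tested. The 10 genes were RpS3A, Arl4, Asator, gw, CG46466, Sox102F, PlexA, sv, Cals and Mitf. They came from 8 peaks, as CG46466 shared the gw peak and sv that of Cals, while the peaks near zfh2 and lncRNA:CR43437 were beyond 1 kb of any coding gene. Asator had the most pooled summits, 12, and 21 genes had 5 or more. The 10 genes with none were CG31998, Crk, Taf3, CG33941, Eph, CG11360, eIF4G1, 4E-T, pho and CG33521.

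The list of transcription regulators was picked by hand and left out Taf3 and fuss. Of its 17 genes, 16 had a pooled peak, against 87.5% of the chromosome's 80 coding genes. A thresholded one stood at 3, against 12.5%, and 13 had a peak at their own start, against 72.5%. The median best rank of the genes with a peak was 6272, against 7287 over all 70 such genes of the chromosome. The thresholded ones were sv, Sox102F and Mitf, followed by ey. Start-proximal peaks below the threshold stood at lgs, a cofactor of Wnt signalling (44.9, rank 5798), at toy (43.2, rank 6129) and at pan (41.9, rank 6416, at an internal start and in replicate 2 only). Another stood at ci (37.1, rank 7637), 125 bp upstream of an internal start, with the start of asRNA:CR43957 closer at 41 bp. The own-start peak of zfh2, by contrast with the distal one, had a signal value of 25.6 at rank 13458, and it was overlapped in replicate 2 only. The gene pho, whose product recruits Polycomb proteins, had no pooled peak within 1 kb.

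Of 12 genes of neurons, synapses and axon guidance, 11 had a pooled peak, against 87.5% of the chromosome's 80 coding genes. A thresholded one stood at 3 (PlexA, Cals and Asator), against 12.5%, and CaMKII followed. The Cals peak is the one also counted for sv. PlexB, the second plexin of the fly and like PlexA on this chromosome, had its highest peak at its start with only 35.8 at rank 8019. Ephrin had a peak of 35.0 at rank 8329, within 500 bp of both its own start and that of the mitochondrial complex I gene ND-49, and its receptor gene Eph had none. The median best rank in the list was 8323, against 7287 over all 70 genes of the chromosome with a peak.

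The 3 TGF-beta ligand genes had pooled peaks and no thresholded one, against 87.5% and 12.5% of the chromosome's 80 coding genes. The start of myo held 45.5 at rank 5690 and that of mav 39.1 at rank 7093, while that of Actbeta held 21.9 at rank 17486. Of 10 housekeeping and metabolic genes, 9 had a pooled peak, all at their own start, against 87.5% and 72.5% of the 80 coding genes. RpS3A alone had a thresholded one, against 12.5%. The DNA glycosylase gene Tdg followed at rank 4975, and then Rad23, a repair factor and carrier of ubiquitinated proteins, at 5424. The calcium pump gene PMCA was at 5711 and the lipid carrier gene apolpp at 6448, while eIF4G1, a translation initiation factor, had none. Of the muscle genes, Zyx had its best in range at 6448, a peak that apolpp shares, and bt, which encodes projectin, its best at 14415 in an intron.

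Summits fell inside annotated transposable elements more often than on the other arms, though less often than the chromosome's content of elements. Of the 253, 31 (12.3%, 8.77 to 16.9) lay in an element, and elements made up 24.8% of the chromosome's bases, or 20.5% up to the last summit. On the other arms 138 of 29747 summits (0.464%) did, with 5.22% of bases in elements. These members were low in rank, with a median of 21335 and a best of 7231, against 17021 for the others, and 12 of the 31 had a peak in each replicate. None of the thresholded peaks was among them. The families with the most summits were 1360, a P-like DNA transposon, and INE-1, a short and very numerous element, with 10 summits (3.95%) each, on 3.79% and 7.22% of the bases. The best of them lay in a 1360 copy near a start of lncRNA:CR46488 and ranked 8426 in replicate 2 and 6240 in replicate 3. HeT-A and TART-A, which build fly telomeres, held 0 summits on 44.3 and 26.1 kb. The last summit was 74.9 kb short of the chromosome's end, and elements covered 95.4% of the last 48 kb bin. Before that, bins of 100 kb held 8 to 31 members, and thresholded members stood in 8 of these 13 bins.

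E-boxes were about as frequent at the members' summits as beside them. Within 50 bp of the summit, 87 of the 253 (34.4%, 28.8 to 40.4) held CANNTG on either strand, against 31.6% and 32% in windows of equal length 250 bp to the left and right, 30.4% of 13177 consecutive windows of that length along the chromosome, and 40% at summits of the other arms. Of the 10 thresholded peaks, 6 held 1 each: CACCTG at zfh2, CATCTG at lncRNA:CR43437, CAAATG at gw, CAATTG at Sox102F and Mitf, and CAGTTG at Arl4. The other 4, at PlexA, sv/Cals, RpS3A and Asator, held none in this window. A share among 10 peaks is known only coarsely, and that of thresholded peaks on the other arms was not computed. GATAA was in 19.4% of the members, against 21.0% of the windows along the chromosome, CGATA (which TATCGATA contains) in 15.4% against 13.3%, GAGAG in 9.88% against 9.25% and the homeodomain core TAATTA in 7.11% against 7.24%. At all these words the chromosome-wide share lay within the members' Wilson interval. Windows at the chromosome's 142 coding-gene starts held CANNTG in 30.3%, GATAA in 26.8%, CGATA in 31.0%, GAGAG in 11.3% and TAATTA in 2.82%. Of these, the GATAA and CGATA shares were above the members' intervals and the TAATTA share was below. A match is a run of letters, and its presence or absence says nothing of binding by a given factor.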

How the data were processed

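Peak lists of 2 ChIP-seq replicates and of both together were used. Per the text files deposited with the samples, peaks were called on dm6 from each replicate's alignment and from both, with 1 shared control alignment (not analysed here), and the IDR list was derived from these 3. Neither the peak caller nor the cut-off on IDR is stated in those sources. The deposited signal value is a score of unstated scale, and the deposited −log10 q-values (members 0.153 to 3.83) were not used to rank, as 12 members share the highest value. The RefSeq assembly, with its repeat masking and elements, and Ensembl release 115 genes on the same build were used, and 44 of 44 listed genes were found, 2 of them under a newer symbol. Thresholded members were matched by summit and signal value. Coordinates are 1-based.

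Computation used Python 3.11.15, NumPy 2.4.6 and SciPy 1.17.1, and the measures were checked on simulated peaks. Intervals are 95% Wilson intervals. The members and lists were chosen with earlier results of these data known. Named genes are those at each thresholded member and at the 5 highest members outside that list, and up to 4 highest and 3 peak-less genes per list. The genes lgs, toy, pan, ci, zfh2 (own start), PlexB, Ephrin, Tdg, Actbeta and CG33978, the lncRNAs, and the remaining genes with no pooled peak were picked with their values in view. Alternatives changed windows, overlap, gene range and list.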

Additional observations from a re-analysis of the deposited data

How the results depend on the processing

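The number of members (253) was 288 and 291 when each replicate's own list was used, and the 10 thresholded members were 12 with any overlap while 12 and 10 chromosome 4 peaks were among the 2862 highest of replicates 2 and 3. The 113 members found in both replicates fell to 50 with summits required within 100 bp and to 38 with the 10000 highest peaks of each replicate. The promoter share was 23.7% at 250 bp, 47.4% at 1000 bp and 60% of the thresholded members. The median rank was 15731 and 16817 in the replicate lists. Genes with a thresholded peak numbered 5 in gene bodies, 18 within 5 kb and 70 for any pooled peak. The E-box share was 17.4% within 25 bp, 53.4% within 100 bp and 60% of the thresholded members. The masked share was 26.2% within 25 bp and over whole peaks, and 20% at thresholded members, where it ran from 0% (as at gw) to 76.2% (Mitf). Density was 259.9 per Mb of unmasked sequence, against 280.7 on the other arms. In the replicate lists it was 213.6 and 215.9 per Mb, and the other arms' density in those lists was not computed. Several of these settings change the quantity by construction, as a wider window holds more. No paired analysis was possible because both replicates form 1 group. With 10 thresholded members, shares among them are known only coarsely, and with no read counts depth is unknown.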
